A study of Mus musculus with 3 samples.

Results

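Neutrophils made up 461 of the 11264 cell barcodes with at least 500 UMIs (unique molecular identifiers, each counting 1 captured RNA molecule) in 3 single-cell libraries of sorted mouse brain myeloid cells. A barcode was counted as a neutrophil when S100a8 and S100a9 together held at least 1% of its UMIs and at least 20 UMIs, and when at least 2 of Retnlg, Mmp8, Mmp9, Lcn2, Slpi, Wfdc21, G0s2 and Csf3r had a UMI. The cells were thus chosen by the measured levels of these 10 genes, whose values are given as a description. The libraries held CD11b+ CD45+ cells sorted from digested brain tissue: 2 were wild type (WT), titled adult in the labels, and 1 came from an MHC class II-deficient mouse, described as almost without CD4 T cells, whose allele and age the labels do not give. The class II genes H2-Aa, H2-Ab1 and H2-Eb1, at 175 to 269 CPM (counts per 1000000 UMIs) in the other barcodes of the WT libraries, have no row in the deficient library's table. The labels do not say how many mice a WT library holds, and p-values measure only the spread between the 2 WT libraries, with the lone deficient library assumed to vary like them. The labels name no treatment of the mice, and all 3 preparations were digested with enzymes and passed through Percoll before sorting.

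Neutrophils are short-lived granulocytes that are made in the bone marrow and reach tissues through the blood. While they mature they fill their granules in order. Azurophil granules, with elastase (Elane) and proteinase 3 (Prtn3), come first in dividing precursors. Specific granules, with cathelicidin (Camp), neutrophilic granule protein (Ngp) and lactoferrin (Ltf), follow, then gelatinase granules with Mmp9, and the chemokine receptor Cxcr2 marks cells able to leave the marrow. Calprotectin, the dimer of S100a8 and S100a9, fills much of the cytosol. In the brain, neutrophils are few outside inflammation and sit mostly in vessels, meninges and the skull marrow, so a preparation of whole brain can contain cells of any of these places.

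Of the 461 neutrophils, 443 (96.1%) were WT. WT 1 held 299 of 4340 barcodes, 6.89% (exact 95% Clopper-Pearson interval 6.15 to 7.68). In WT 2 there were 144 of 4667, 3.09% (2.61 to 3.62). The deficient library held 18 of 2257, 0.798% (0.473 to 1.26). These intervals reflect counting error alone. They overlapped for no pair of libraries, the WT pair included. With 2 libraries against 1 no test of the share was made, and cells of blood or marrow carried along with the tissue cannot be told apart from cells within it. The neutrophil UMIs summed to 1389616, 756944 and 49370, so the deficient sum was by far the shallowest.

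S100a8 and S100a9 held a median of 35.9%, 36.9% and 33.7% of a neutrophil's UMIs in WT 1, WT 2 and the deficient library. In the other barcodes the medians were 0.0776%, 0.0386% and 0%. The rule cut a nearly empty stretch: 396 neutrophils (85.9%) had 20% or more and 34 had under 10%. The 3 lowest inside the rule had 1.10%, 1.44% and 1.46%, all in WT 1, and 17 barcodes lay just outside, between 0.5% and 1%. A further 20 barcodes above 1% missed the limit of 20 UMIs, and 1, with 12.8% in WT 2, had just 1 of the 8 further genes. Neutrophils had few genes for their depth, with median UMIs of 3064, 3421.5 and 1942.5 and median genes of 808, 817 and 601, against 1624, 1603 and 1389 genes in the other barcodes.

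Genes that the rule did not use also fitted the name neutrophil. Among genes of at least 100 CPM in neutrophils, the 12 with the largest ratio to the other barcodes in both WT libraries were Ngp, Camp, Ltf, Pglyrp1, Ly6g, Lrg1, Fcnb, Cebpe, Mrgpra2b, Serpinb1a, Orm1 and Itgb2l. These are a description of the same cells, with no test. Ly6g, which encodes the surface antigen used to gate mouse neutrophils, was at 947, 958 and 1033 CPM in neutrophils and at 3.59, 1.21 and 0 CPM in the other barcodes of WT 1, WT 2 and the deficient library. Pglyrp1 is a peptidoglycan-binding granule protein and Cebpe a transcription factor of granulocytes. Markers of other cell types were measured in the same cells. Of 10 T cell markers 3, 3 and 1 are listed in the tables, summing to 16.6, 15.9 and 0 CPM in neutrophils. Of 8 natural killer markers 2, 2 and 0 are listed, summing to 44.6 and 19.8 CPM in WT, all of it Nkg7, and of 7 erythroid markers 3, 1 and 0, summing to 5.76 and 1.32 CPM. The classical monocyte list (8 markers) summed to 5663, 6883 and 3362 CPM, most of it Chil3, which granulocytes share. Other markers of the list, among them Ly6c2 and Plac8 in WT, gave the rest. The non-classical monocyte list (8 markers) summed to 332, 285 and 284 CPM in neutrophils, above the 157, 111 and 104 CPM of the other barcodes, with 8, 7 and 3 markers seen. The B cell list summed to 92.1, 77.9 and 20.3 CPM, the dendritic cell list to 137, 140.04 and 20.3 CPM and the platelet list to 60.4, 63.4 and 20.3 CPM, each below the other barcodes. The border-associated macrophage list summed to 43.2, 27.7 and 0 CPM and the endothelial list to 30.9, 26.4 and 20.3 CPM, also below them. Mast cell markers summed to 15.8 CPM in WT 1, with none seen in the others, and eosinophil markers to 2.88, 1.32 and 0 CPM. The microglia list (10 markers, all with a UMI in both WT libraries and 7 in the deficient one) summed to 3398, 2699 and 324 CPM in neutrophils and to 34263, 36361 and 35332 CPM in the other barcodes. A high microglia share, at least 0.2 of the other barcodes' median, was found in 31, 13 and 0 neutrophils; whether these were doublets was not tested. The 3 libraries shared 30, 19 and 13 barcode sequences pairwise, and 1 barcode sequence was a neutrophil in more than 1 library.

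Camp, Ngp and Ltf, the genes used below to order the cells, lie on the same chromosome. Camp is at chr9:109847379-109849617 on the minus strand, Ngp at chr9:110419747-110423012 and Ltf at chr9:111019271-111042767 on the plus strand (GRCm38, GENCODE). Their upstream sequences are shown because these 3 genes order the cells. Each is the part of RefSeq's 250 bases before the start site (GRCm38.p6) that lies before the GENCODE start as well, 5′ to 3′ on the gene's own strand: chr9:109849618-109849706 for Camp, chr9:110419558-110419746 for Ngp and chr9:111019042-111019270 for Ltf. Capitals mark TTGCNNAA on either strand, a form of the core bound by C/EBP factors, the family of Cebpe.
Camp: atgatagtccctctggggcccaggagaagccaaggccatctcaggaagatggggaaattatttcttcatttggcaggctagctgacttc
Ngp: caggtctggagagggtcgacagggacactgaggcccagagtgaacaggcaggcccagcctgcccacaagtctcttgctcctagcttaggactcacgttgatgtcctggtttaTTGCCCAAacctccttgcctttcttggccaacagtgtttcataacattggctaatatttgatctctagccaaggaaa
Ltf: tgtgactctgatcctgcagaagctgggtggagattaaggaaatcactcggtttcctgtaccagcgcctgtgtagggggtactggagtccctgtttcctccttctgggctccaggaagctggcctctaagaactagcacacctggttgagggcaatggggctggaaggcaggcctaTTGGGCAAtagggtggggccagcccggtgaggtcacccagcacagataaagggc
Over the whole 250 bases, Ngp matched 138 and 11 bases before the start, the second in the stretch not printed, Ltf matched 75 bases before it, and Camp did not match. Of all 32851 RefSeq promoters of this length 9.56% matched. A match of letters is a description and does not show binding.

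The summed share of Camp, Ngp and Ltf ran from 0 to 30.0% of a cell's UMIs in WT 1, to 45.3% in WT 2 and to 12.3% in the deficient library. In bins of under 0.1%, 0.1 to 1%, 1 to 5% and 5% or more, Camp was at 99.6, 1319, 14281 and 56353 CPM in WT 1 and at 84.5, 1555, 14286 and 62099 CPM in WT 2. Of the 461 cells, 88 had none and 181 had 5% or more. Cells were counted as granule-rich at a share of 1% or more and as low-share below it. This is a cut through a range: 36 cells (7.81%) lay between 0.5% and 2%. Granule-rich cells were 144 of 299 neutrophils in WT 1, 48.2% (42.4 to 54.0), 78 of 144 in WT 2, 54.2% (45.7 to 62.5), and 6 of 18 in the deficient library, 33.3% (13.3 to 59.0). The 3 intervals overlap, and a lower share in the deficient mouse was not detectable with 18 cells. In all there were 228 granule-rich and 233 low-share cells.

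**Figure D1:**
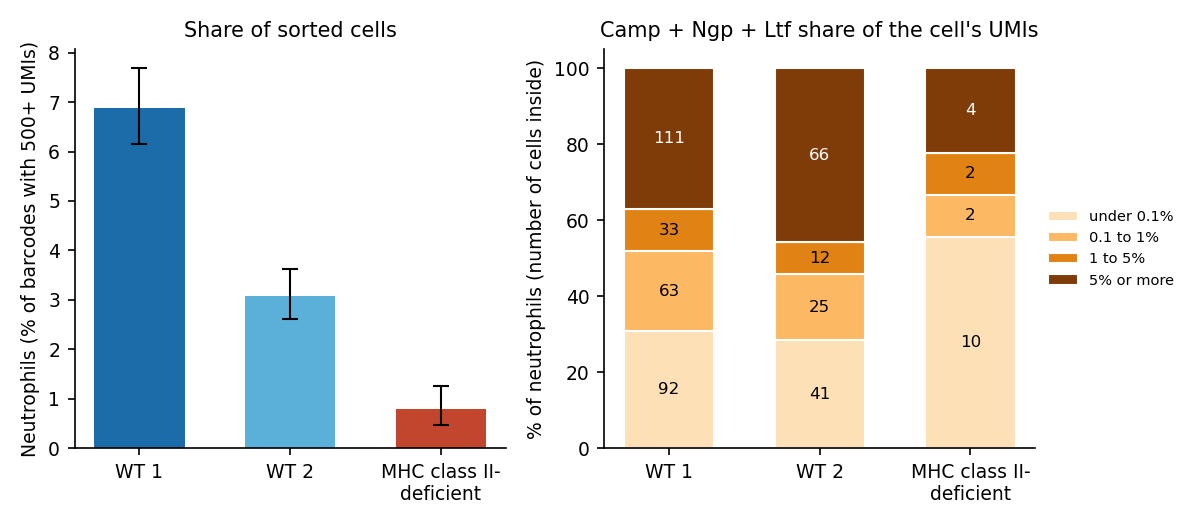
Left, neutrophils as a percentage of barcodes with at least 500 UMIs in each library, with exact 95% intervals for counting error. Right, the percentage of neutrophils in each bin of the summed Camp, Ngp and Ltf share, with cell numbers in the bars; 111, 66 and 4 cells were at 5% or more.

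Depth moved with the share. Granule-rich cells had median UMIs of 5398.5 in WT 1, 5955.5 in WT 2 and 4799.5 in the deficient library, against 1867, 1642.5 and 1500 in low-share cells. They held 73.9%, 81.9% and 58.2% of all neutrophil UMIs. Thinned to 1000 UMIs per cell, with 3 granule-rich and 21 low-share WT cells left out as too shallow, they showed fewer genes than low-share cells, 332 against 387.5 in WT 1 and 322 against 373 in WT 2; unthinned, the medians were 1117.5 against 616 and 1160 against 559.

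**Figure D2:**
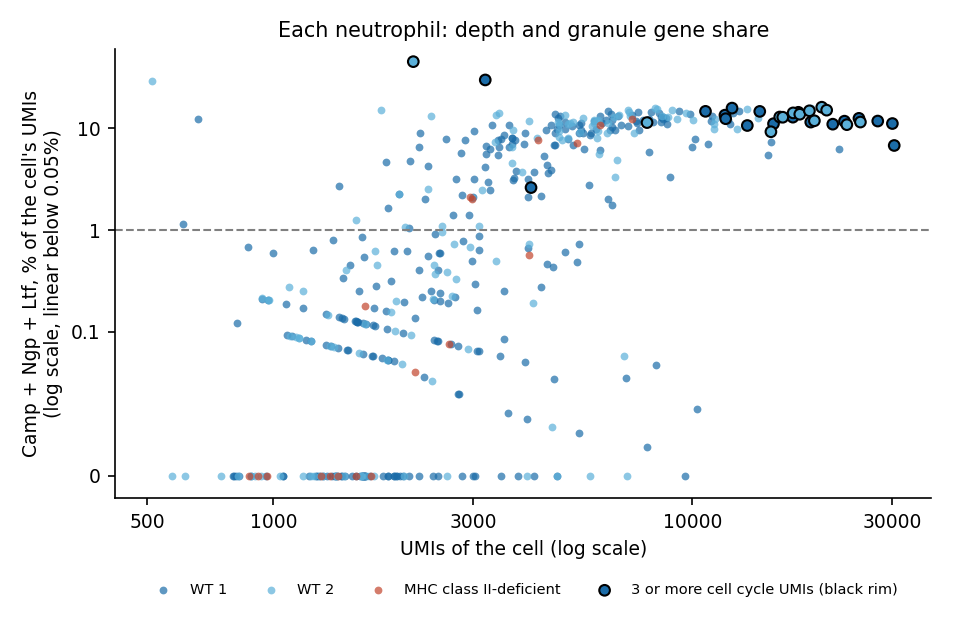
Each point is 1 neutrophil: its UMIs on the horizontal axis (log) against the share of Camp, Ngp and Ltf on the vertical axis (log, linear below 0.05%), coloured by library; the dashed line is the 1% cut and black rims mark the 31 cells with at least 3 cell cycle UMIs. Of the 48 cells above 10000 UMIs, 47 are granule-rich and 27 carry black rims.

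Over bins of the share, different genes peaked in different bins, in both WT libraries. The bins were cut on specific granule RNA, and Retnlg, Mmp8, Mmp9 and Csf3r helped to choose the cells, so the levels are a description. The values are CPM of the summed UMIs in cells under 0.1%, at 0.1 to 1%, at 1 to 5% and at 5% or more, with 92, 63, 33 and 111 cells in WT 1 and 41, 25, 12 and 66 in WT 2. Chil3, a chitinase-like protein of immature granulocytes, was at 36.2, 91.7, 893 and 6564 CPM in WT 1 and at 0, 18.5, 765 and 7330 CPM in WT 2. Cebpe had its highest level in the top bin too, 328 and 368 CPM, against 22.6 and 0 CPM in the lowest. Retnlg, a resistin-like protein of maturing neutrophils, was highest in the second bin: 30360, 54014, 40233 and 5493 CPM in WT 1, and 20576, 52968, 39454 and 4422 CPM in WT 2. Mmp8, the neutrophil collagenase, was high in both middle bins, with 914, 2327, 2319 and 833 CPM in WT 1 and 845, 2313, 2591 and 790 CPM in WT 2. The gelatinase Mmp9 had the same middle peak, 1615 and 1649 CPM against 1100 and 525 CPM at the ends in WT 1, and 1147 and 1308 against 737 and 512 CPM in WT 2. Il1b, the interleukin-1β precursor, was highest in the lowest bin, 4418, 2821, 1254 and 399 CPM in WT 1 and 4250.5, 2128, 370.1 and 183 CPM in WT 2. Csf3r, the G-CSF receptor, went the same way, from 529.6 to 69.2 CPM and from 483 to 46.6 CPM. Cxcr2 was at 57.1 and 32.8 CPM in the top bin and at 258 to 543 CPM in the 3 others. No test was made over the bins; the 1 to 5% bin of WT 2 is thin.

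**Figure D3:**
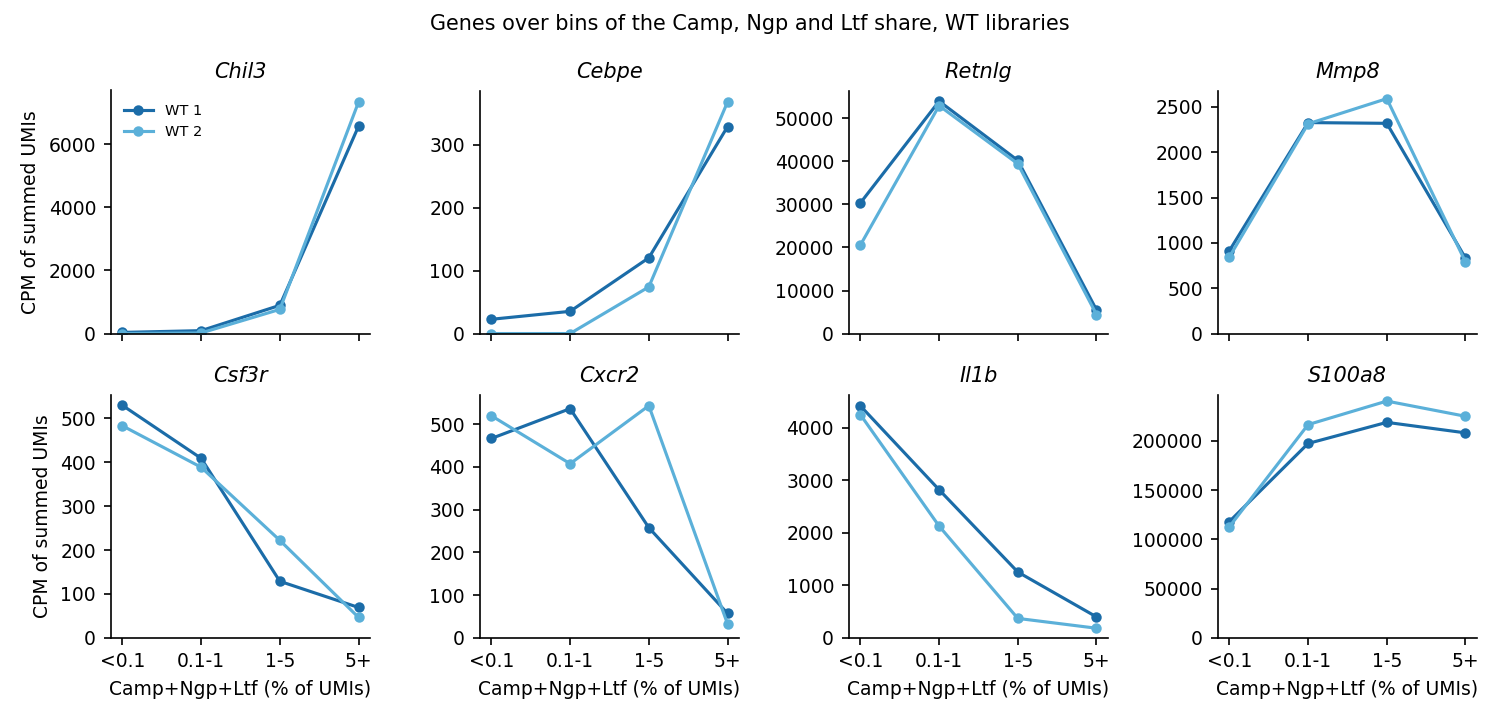
CPM of 8 genes in neutrophils binned by the summed Camp, Ngp and Ltf share (% of UMIs), 1 line for each WT library. Chil3 and Cebpe are highest at 5% or more, Retnlg and Mmp8 in the middle bins, and Csf3r and Il1b in the lowest bin in both libraries.

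Cells with RNA of the cell cycle, called dividing cells below, were a small set within the granule-rich cells. At least 3 UMIs over Mki67, Top2a, Ube2c, Birc5, Cdk1, Ccnb2 and Ccna2, genes of mitosis and DNA replication chosen here after their values were seen, were found in 18 neutrophils of WT 1 and 13 of WT 2. All 31 were granule-rich. Of these 7 genes, 4 (Mki67, Top2a, Ccnb2 and Ccna2) have no row in the deficient library's table, so this count was not comparable between genotypes. Over Ube2c, Birc5 and Cdk1 alone, at least 3 UMIs were found in 13 of 299 neutrophils of WT 1 (4.35%), 9 of 144 of WT 2 (6.25%) and 0 of 18 of the deficient library, where 3 counts of 18 would be 16.7%, so a difference was not detectable at this number of cells. The limit of at least 3 UMIs was not scaled to depth, so deep cells, and with them granule-rich cells, could pass it more easily. Most of the 31 were deep. Their median was 16505 UMIs in WT 1 and 18056 in WT 2, against 4898 and 5769 in the remaining granule-rich cells. The 31 included 27 of the 48 neutrophils above 10000 UMIs. Their median Retnlg share was 0.00617% and 0.00525% of UMIs, against 1.07% and 0.624% in the remaining granule-rich cells, and their median Chil3 share 0.971% and 1.05% against 0.261% and 0.387%. Their microglia marker share was low, with medians of 0.0477% and 0.0525%, and 2 of the 31 were among the cells with a high one. Azurophil RNA came from fewer cells still. Elane had 372 UMIs in 4 cells of WT 1, 79.8% of them in 1 cell, and 67 UMIs in 4 cells of WT 2, with none in low-share cells. Prtn3 had 121 UMIs in 7 granule-rich cells of WT 1 and 49 in 5 of WT 2, and 1 UMI in a low-share cell. Of the 18 cells with at least 3 UMIs over Elane, Prtn3, Mpo, Ctsg, Ms4a3 and Prss57, 17 were among the 31. Fcnb, a ficolin of precursors, was spread more widely, with 374 UMIs in 38 cells and 262 in 22. Elane, Fcnb, Cebpe and Mki67 have no row in the deficient library's table, in which the rarest listed gene had UMIs in 4 barcodes, so their absence there could not be measured.

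Granule-rich and low-share neutrophils were compared over sums per WT library in edgeR, with the library as a block and Camp, Ngp and Ltf taken out. Of 3963 genes, 1203 (30.4%) passed at an adjusted p of 0.05, 623 (15.7%) higher and 580 (14.6%) lower in granule-rich cells. The classes were cut on RNA of the same cells, so these calls say how far the 2 WT libraries repeat a difference and are not independent of the cut, and 1 residual degree of freedom is left. The 10 genes that chose the cells, among them S100a8, S100a9, Lcn2 and Csf3r, are in the table as well. Their values below, and their part in any count over a list, are a description. DESeq2 passed 194 and 176 of 2905 genes. Microglia RNA moved with the classes: 9 of the 10 microglia markers were lower in granule-rich cells, and the list summed to 2117 and 1693 CPM there against 7024 and 7256 CPM in low-share cells. Without the cells of high microglia share, 791 genes passed higher and 661 lower of 3221 tested. The levels below are CPM normalised by trimmed means (TMM).

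Genes of the specific granules and of the NADPH oxidase, the enzyme of the respiratory burst, were higher in granule-rich cells. Of 12 tested specific granule genes, 11 were higher and none lower; Olfm4 missed the threshold (adjusted p = 0.058 in edgeR). Lcn2, the siderophore-binding lipocalin, was at 16887 against 2339.8 CPM in WT 1 and 18587 against 1492 CPM in WT 2, a log2 difference of 3.22 ± 0.21 (SE). Lyz2, lysozyme, was at 19617 against 9255 and 21877 against 7751 CPM (1.29 ± 0.15). Chil3 differed most among genes seen in both classes, with 7418 against 57.4 and 9334 against 6.72 CPM (7.59 ± 0.36). Fcnb had no UMI in low-share cells and 636 in granule-rich ones, which is at least 64.3-fold higher with a floor of 3 UMIs over the low-share cells. Elane, on the same floor, was at least 44.4-fold higher. Of 7 oxidase genes, 5 were higher, led by the catalytic subunit Cybb (1138 against 161 and 1278 against 182 CPM, 2.82 ± 0.15), and 2 did not pass. Of 7 tested genes of the azurophil list, 5 were higher (Elane, Prtn3, Ms4a3, Nkg7 and Serpinb1a) and 2 lower, the proteoglycan Srgn and the protease-activating cathepsin Ctsc. The list is wider than granule proteins such as Elane and Prtn3, and Nkg7 is also counted above as a natural killer marker. Elane and Prtn3 RNA came from few cells, as given above. Without the 31 dividing cells, 3 genes of this list could be tested, 1 higher and 2 lower, whereas all 12 specific granule genes were higher. Gelatinase granule and secretory vesicle genes were mixed, with 1 of 10 higher (Pglyrp1), 2 lower (Adam8, Slc11a1) and 7 not past the threshold. This is near the 15.7% higher and 14.6% lower over all 3963 genes. Without the dividing cells 5 of this list were higher and 2 lower, where 565 and 584 of 3275 genes were.

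All 22 tested cell cycle genes were higher in granule-rich cells, with a median log2 difference of 5.16, or 3.60 with genes unseen in low-share cells set at their bound. Over all genes tested the median was 0.04. Without the dividing cells 6 could be tested, 4 higher and 2 lower, and Tuba1b changed sign, from 1.68 to −1.08. Dividing cells were chosen by their cell cycle RNA, so this loss of differences follows in part from the choice. Glycolysis genes moved partly the same way, with 9 of 19 higher and 4 lower. Ldha, lactate dehydrogenase A, was at 811 against 249 and 947 against 202 CPM (1.90 ± 0.17), and the 4 lower genes were the hypoxia factor Hif1a, the transporters Slc2a1 and Slc16a3, and Bnip3. Among granulocyte transcription factors, Cebpe was higher (382 against 27.3 and 471 against 0 CPM, 4.41 ± 0.46), Cebpb, Ets2, Irf8, Fosl2 and Mxd1 were lower, and 8 of 14 did not pass, among them Spi1 with a difference of −0.01 ± 0.15.

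**Figure D4:**
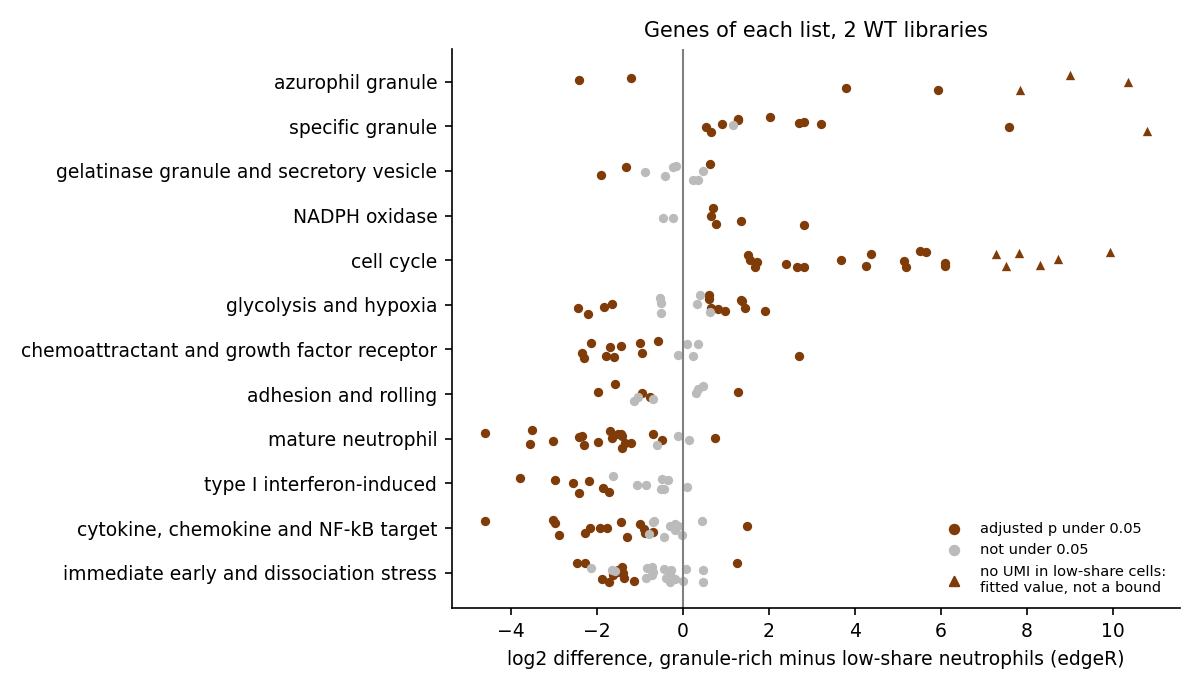
Log2 difference between granule-rich and low-share neutrophils for the tested genes of 12 lists (edgeR, 2 WT libraries); brown points passed an adjusted p of 0.05, grey did not, and triangles are genes without a UMI in low-share cells. All 12 specific granule genes lie right of 0, where 11 passed, and all 22 cell cycle genes passed there; 18 of 22 mature neutrophil genes passed on the left.

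Low-share cells had more RNA of most tested receptors and of many genes of mature neutrophils. Of 22 tested genes of mature neutrophils, 18 were lower in granule-rich cells, 1 was higher (Gadd45a) and 3 did not pass. Il1b was at 621 against 3761 CPM in WT 1 and 264 against 3139.5 CPM in WT 2 (−3.01 ± 0.23). The chemokine Ccl6 was at 173 against 3187 and 54.5 against 2339.5 CPM (−4.60 ± 0.26). Of 15 tested receptors, 10 were lower. Cxcr2, the receptor for neutrophil chemokines, was at 100.05 against 489 and 89.4 against 437 CPM (−2.29 ± 0.16), and Csf3r at 95.2 against 478 and 78.5 against 410.1 CPM (−2.35 ± 0.17). The marrow retention receptor Cxcr4 was lower as well (72.0 against 172 and 45.8 against 289 CPM, −1.78 ± 0.33). The leukotriene B4 receptor Ltb4r1 was the 1 receptor that was higher, at 405 against 73.8 and 493 against 53.8 CPM (2.69 ± 0.23), and the formyl peptide receptors Fpr1 and Fpr2 did not pass. Of 11 adhesion genes, 4 were lower, among them the selectin ligand Selplg (−1.59 ± 0.14), and 1 was higher (Ceacam1). The survival genes Mcl1 (−1.60 ± 0.16) and Pim1 (−2.39 ± 0.18) were lower, with 4 of 14 genes of that list lower and none higher.

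The largest differences towards low-share cells, by a rule of size, were in Wfdc17 (−5.73), Pla2g7 (−5.60), Jaml (−5.43), Sirpb1b (−5.19), Fgl2 (−5.07), H2-Q10 (−4.67), Ccl6 (−4.60), Stfa2l1 (−4.14), Stfa1 (−3.67), Ifitm1 (−3.55), Clec4d (−3.52) and Asprv1 (−3.34). Wfdc17 is a small secreted protein of the WAP family, Jaml a junctional adhesion molecule of leukocytes, and Clec4d a lectin receptor. Stfa1 and Stfa2l1 (stefins), H2-Q10, Sirpb1b and Ifitm1 have near-identical relatives, and reads could be shared among these. Type I interferon-induced genes were lower in granule-rich cells for 7 of 15 tested and higher for none, led by Oasl2 (−3.79 ± 0.75) and Ifi27l2a (−2.98 ± 0.26). Of 31 immediate early and dissociation stress genes, 12 were lower, 1 was higher (Hsp90aa1) and 18 did not pass. Dusp1, a phosphatase induced by stress and tissue digestion, was at 189 against 722 and 63.3 against 713 CPM (−2.46 ± 0.33). The part that enzymatic digestion had in these levels was not tested. The calgranulins split: S100a8 (0.97 ± 0.16) and S100a9 (0.90 ± 0.15) were higher, and S100a6 (−1.51 ± 0.12), S100a11 (−0.74 ± 0.12) and S100a4 (−3.85 ± 0.70) lower.

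Between genotypes, neutrophils of the MHC class II-deficient mouse had more RNA of Wfdc17, Ifitm1 and other genes of low-share cells. Of 5257 genes, 148 (2.82%) passed in edgeR over the 3 library sums, 51 (0.97%) higher and 97 (1.85%) lower. The median log2 difference over all 5257 genes was −0.65. Of these, 1721 were unseen on 1 side, and those too low for a bound were left out of a further median. Over the 3621 genes with a value or a bound that median was −0.02. DESeq2 passed 6 higher and 13 lower of 4418 genes, and limma voom 39 and 14 of 5257. Among the genes past all 3 tools were Acod1, Gadd45b, Ifi27l2a, Ifitm1, Ifitm2 and Wfdc17 (higher) and C1qa, C1qb, Camp, Chil3, Cst3, Ctsd, Hmgn2, Ppia, Ptma and Rps19 (lower). The makeup of the cells moved with genotype: the 44 cells of high microglia share and the 48 cells above 10000 UMIs were all WT. The 31 dividing cells were WT too, on a score of which 4 of 7 genes have no row in the deficient table. The part of this makeup in the whole result was not tested, but the comparison was repeated within low-share cells without high microglia share (136, 58 and 12 cells, a choice made after the data were seen). There 7 of 1237 genes passed higher (Wfdc17, Ifitm1, Cxcl2, Lrg1, Il1b, Ifitm2 and G0s2) and 3 lower (Thbs1, Lyz2 and Slpi). Of these G0s2 and Slpi are genes of the rule that chose the cells, and their calls are no independent test. Camp, Ngp and Ltf were held low in low-share cells by the cut that set the class. None of the 97 genes that were lower over all neutrophils passed again. That fit tested 1237 genes against 5257 over all neutrophils, and any of the 97 outside it had no test there.

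Wfdc17 had 39.8 CPM in WT 1, 30.7 in WT 2 and 2036 in the deficient library, a log2 difference of 5.80 ± 0.26. Its 107 UMIs in the deficient mouse lay in 8 of 18 neutrophils, all low-share, and 1 cell held 32.7% of them. Among low-share cells it stood at 143, 146 and 5179 CPM. Thinned to 800 UMIs per cell, 5.81% of 155, 6.35% of 63 and 50% of 12 low-share cells had a UMI (unthinned 9.68%, 10.6% and 66.7%), against 1.15%, 1.03% and 0.498% of the other barcodes. It passed all 15 fits made, the largest adjusted p being 0.000102, and in the low-share cells without high microglia share the adjusted p in edgeR was 4.75e-05 (4.77 ± 0.22).

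Ifitm1, an interferon-induced membrane protein that limits virus entry, was at 82.6 and 51.2 CPM in WT and 1522 in the deficient mouse (4.45 ± 0.26), with 80 UMIs in 9 cells, all low-share. Among low-share cells the levels were 240 and 248 against 3872 CPM. The related Ifitm2 was at 519 and 603 against 1960.2 CPM (1.81 ± 0.22), with UMIs in 16 of 18 deficient cells. Both passed all 15 fits, with largest adjusted p-values of 0.00203 and 0.0292. Ifi27l2a passed 14 of 15, at 214 and 227 against 1732 CPM (2.98 ± 0.24), and missed in the low-share cells without high microglia share (adjusted p = 0.0692 in edgeR, the largest over its fits). Of the 22 tested type I interferon-induced genes, 6 rose (Ifi27l2a, Isg15, Slfn1, Rtp4, Oasl2 and Ifitm3) and none fell. In the low-share cells without high microglia share none of 12 genes of this list passed, with a median log2 difference of 1.44 against −0.17 over all 1237 genes. Ifitm1 and Ifitm2, which the list does not hold, passed there. There Ifi27l2a differed by 1.88 ± 0.35, Rtp4 by 1.88 ± 0.65, Isg15 by 1.51 ± 0.38 and Slfn1 by 1.36 ± 0.42.

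Il1b was at 1391 and 861 CPM in WT and 4168 in the deficient mouse (1.88 ± 0.20). All 12 low-share cells of the deficient mouse and none of its granule-rich cells had a UMI of it, and 1 cell held 40.2% of the 219 UMIs. Among low-share cells Il1b stood at 3793 and 3413 against 10600 CPM, with 75.5%, 79.4% and 91.7% of the cells showing a UMI at 800 UMIs. Cxcl2, a ligand of Cxcr2, was at 399 and 212 against 1789 CPM (2.52 ± 0.23), with 41.5% of its 94 deficient UMIs in 1 cell. Both passed 13 of 15 fits and missed in DESeq2 and without a filter on low counts. Acod1, the itaconate-making enzyme, was at 96.6 and 102 (WT) against 552 CPM (2.48 ± 0.34), with 48.3% of its 29 deficient UMIs in 1 cell. Lrg1, a leucine-rich granule glycoprotein, was at 327 and 436 against 952 CPM (1.33 ± 0.26). In low-share cells Lrg1 was at 138 and 183 against 1936 CPM, with UMIs in 9 of the 12 deficient cells. Of 22 mature neutrophil genes, 9 rose and none fell, and in the low-share cells without high microglia share 4 rose; G0s2, a gene of the rule, is in both counts. Of 27 cytokine and NF-kB genes, 4 rose (Il1b, Cxcl2, Acod1 and Nfkbia) and 2 fell (Ccl3 and Ccl4). Ccl4 was at 718 CPM in WT 1 and 101 in WT 2, against 95.2 in the deficient library; without WT 1 its log2 difference was 0.14.

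**Figure D5:**
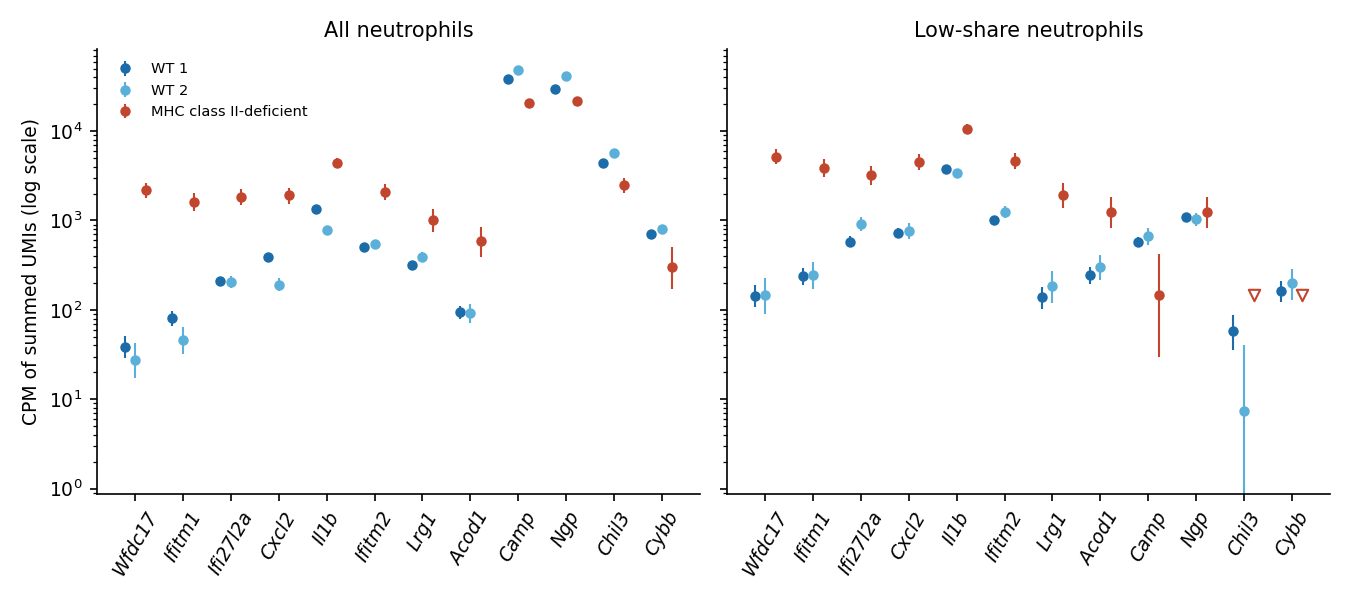
CPM of summed UMIs (log scale) for 12 genes in each library, with exact 95% Poisson intervals for counting error, over all neutrophils (left) and low-share neutrophils (right); open triangles mark the floor of 3 UMIs where none was seen. Wfdc17, Ifitm1, Ifi27l2a, Cxcl2, Il1b, Ifitm2, Lrg1 and Acod1 are higher in the deficient library in both panels.

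Specific granule and cell cycle RNA was lower in the deficient library. Camp was at 39232 and 53660 CPM in WT and 19449 in the deficient mouse (−1.26 ± 0.25), Chil3 at 4501 and 6264.5 against 2322 CPM (−1.21 ± 0.23) and Cybb at 732 and 897 against 285 CPM (−1.51 ± 0.34). Of the 122 Chil3 UMIs in the deficient library 66.4% were in 1 cell. Of 14 specific granule genes, 5 fell and none rose, and within low-share cells without high microglia share 1 of 10 fell, Lyz2. Ltf did not pass (−0.35 ± 0.22). Low-share cells were cut on Camp, Ngp and Ltf, so few specific granule calls within them follow in part from the cut. Of 17 cell cycle genes, 7 fell, 5 of them without a UMI in the deficient library, where the floor of 3 UMIs was 60.8 CPM. Tuba1b was thus at least 4.42-fold lower there and Stmn1 at least 2.78-fold lower. Without the 31 dividing cells none of 6 testable cell cycle genes passed, and Chil3 missed the threshold (−0.53, adjusted p = 0.338 in edgeR; 3.53e-07 to 0.638 over its fits). The dividing cells were chosen by their cell cycle RNA, so the cell cycle result without them follows in part from that choice. Among low-share cells Chil3 was at 57.9, 7.31 and 0 CPM. Genes of microglia fell too, among them the complement gene C1qa, from 1025.5 and 944 to 133 CPM (−2.89 ± 0.40). In neutrophils without high microglia share C1qa missed the threshold (adjusted p = 0.125 in edgeR; 3.4e-16 to 0.281 over its fits).

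The genes of the rule chose the cells, so their levels by genotype are a description, with no test. S100a8 was at 198340 and 235730 CPM in WT and 212400 in the deficient library, and S100a9 at 133800 and 148570 against 143820. Retnlg was at 17745 and 12775 against 22856 CPM, Mmp8 at 1151 and 1110 against 1827, Mmp9 at 842 and 692 against 1161, and Lcn2 at 10843 and 12797 against 8412. G0s2, a lipase inhibitor, was at 1433 and 1254 against 2227 CPM. Its 117 UMIs in the deficient mouse lay in 10 cells, and 1 held 40.2% of them. The transcription factor Klf2 was at 466 and 414 against 57.1 CPM (−2.95 ± 0.54). In the deficient library Klf2 had just 3 UMIs in 3 cells, at the floor of 3 UMIs, and it passed 11 of 15 fits. Jund, at 226 and 184 against 114 CPM, did not pass (−0.86 ± 0.51). None of 20 glycolysis genes, 16 survival genes or 11 gelatinase granule genes passed in either direction. Over all 5257 genes 2.82% passed, and lists this short cannot show a lack of difference at that share.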

How the data were processed

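UMI counts per gene and barcode of 3 libraries were used as the authors deposited them, a raw count table for each library, made with Cell Ranger 3.0, Seurat 2.2 and mm10, per the submitters' processing notes. Total UMIs were 16230216 in WT 1, 17293844 in WT 2 and 6616662 in the deficient library. Only genes listed in all tables compared were tested, and a gene without a row is called not listed, not 0. The members and gene lists were chosen with earlier results of these data known. UMIs were summed over neutrophils per library, or per library and class, and tested with edgeR 4.0.16 (TMM, filterByExpr, quasi-likelihood test, Benjamini-Hochberg adjustment, threshold 0.05). DESeq2 1.42.0 and limma voom 3.58.1 were alternatives, with other rules, filters and scalings and with each WT library left out. The limits to 10000 UMIs and to fewer than 3 cell cycle UMIs were chosen after the data were seen. So were the limit to low-share cells without high microglia share and the thinning of class sums. Named genes were those of the rule, listed genes that passed or were most abundant, and the 12 largest changes in each direction of at least 50 CPM whose groups did not overlap. No doublet caller was run: cells of high microglia share were left out in an alternative instead. The edgeR steps were tested on simulated data. Results for a few genes are not reported here. Intervals and floors cover counting error only.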

Additional observations from a re-analysis of the deposited data

How the results depend on the processing

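Between genotypes, 51 genes were higher and 97 lower of 5257 tested in edgeR. The fits tested different numbers of genes, so the counts do not compare as shares. With cells of at most 10000 UMIs they were 29 and 40 of 3670, and without the dividing cells 27 and 59 of 4458. Among low-share cells they were 33 and 61 of 1951, and without high microglia share as well 7 and 3 of 1237. DESeq2 gave 6 and 13 of 4418, and no filter on low counts gave 5 and 10 of 10992. Limma voom gave 39 and 14 of 5257, and sums thinned to the smallest gave 65 and 50 of 658. Higher genes were 34.5% of calls in edgeR, 73.6% with voom and 56.5% after thinning. Without WT 1 or WT 2 no residual spread is left, and only directions were compared: 51 of the 51 higher genes kept theirs in both cases, and 95 to 97 of the 97 lower ones. Signs reversed for Ccl4 without WT 1 (−2.79 without WT 2 to 0.14 without WT 1), for Ngp among low-share cells (0.087), and for Ptma among low-share cells (0.061) and those without high microglia share (1.60). Ngp helped to set the low-share class, so its level there is limited by the cut. The causes of these reversals were not tested.

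Between classes, 623 genes were higher and 580 lower of 3963 tested with the library as a replicate block, since both classes come from each library. With no replicate block they were 772 and 752. DESeq2 gave 194 and 176 of 2905, and no filter on low counts gave 983 higher genes of 11646, 61.0% of calls against 51.8%. All 623 and 580 kept their direction without either library. Tuba1b reversed with cells of at most 10000 UMIs (−1.46) and without dividing cells (−1.08). The deficient sum of 49370 UMIs limits what its 18 cells can show.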
